A study of Mus musculus with 21 samples.

Results

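The MHC class I antigen presentation genes described here are B2m, H2-K1, H2-D1, Tap1, Tap2, Tapbp, Psmb8, Psmb9, Psmb10 and Nlrc5. They were taken by symbol from a deposited table of 20900 mouse genes, in which all 10 were found. All 10 also passed a filter that kept 14666 genes with a log2 value above 0 in at least 3 of 21 libraries. Each of the 10 lay above 0 in all 3 control libraries, with 72 to 2575 reads per library, so none passed through a treated group alone. Poly(A) RNA was sequenced from E14 cells, an established mouse embryonic stem cell line of the 129 strain, kept in serum and leukaemia inhibitory factor (LIF). Control cells were taken at 0 h, and the 6 other groups after 2, 4 or 8 h with BMH-21 or CX-5461, each at 1 µM. Both compounds are small-molecule inhibitors of RNA polymerase I, the enzyme that makes the ribosomal RNA precursor. Each of the 7 groups had 3 replicate libraries, all groups came from the same line with no other genetic change named, and the 0 h control was shared by both inhibitors. Since inhibitor was given with fresh medium and the control was not matched in time, the effects of inhibitor, fresh medium and hours in culture cannot be told apart.

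MHC class I molecules show peptides from inside the cell to cytotoxic T cells. Proteasomes cut proteins into peptides, the transporter formed by TAP1 and TAP2 carries them into the endoplasmic reticulum, and tapasin (Tapbp) holds the transporter beside the empty class I molecule while it is loaded. The class I molecule is a heavy chain (H2-K1 or H2-D1) bound to beta-2-microglobulin (B2m). In cells exposed to interferon, the subunits Psmb8, Psmb9 and Psmb10 replace their constitutive counterparts in the proteasome, and Nlrc5 acts as a transactivator of class I genes at a shared promoter element. Embryonic stem cells are known for low class I levels at their surface.

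In GRCm38 (mm10), with GENCODE M21 gene models, all 10 are protein-coding genes and 7 of them lie on chromosome 17 in and around the H2 region. These are Tapbp (chr17:33915899-33929292, plus strand), H2-K1 (chr17:33996017-34000347, minus strand), Psmb9 (chr17:34181987-34187764, minus strand), Tap1 (chr17:34187553-34197225, plus strand), Psmb8 (chr17:34197721-34201454, plus strand), Tap2 (chr17:34203527-34216321, plus strand) and H2-D1 (chr17:35262730-35267499, plus strand). B2m is at chr2:122147686-122153083 on the plus strand. Psmb10 (chr8:105935735-105938444, minus strand) and Nlrc5 (chr8:94434356-94527272, plus strand) share chromosome 8. Psmb9 and Tap1 are divergent neighbours whose RefSeq start sites, at 34187330 and 34187556, have 225 bases between them.

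RefSeq promoter sequence (GRCm38.p6) was matched for 8 of the 10 genes, which excludes Tap2 and Nlrc5. Windows of the 250 bases before each start site were searched on both strands for 7 motifs known from class I, interferon or stress-induced transcription. They were the interferon-stimulated response element (GAAA, any 2 bases, GAAA), the gamma-interferon activated site TTCNNNGAA, the NF-kappa-B consensus, CCAAT, the cyclic AMP response core TGACG, the AP-1 site TGANTCA and the p53 decamer. The windows of B2m and H2-K1 are shown because these genes encode the light and the heavy chain of the class I molecule, and their matches are in capitals. The 30-base windows show matches between the divergent genes Psmb9 and Tap1, and in Psmb8 and H2-D1.
B2m: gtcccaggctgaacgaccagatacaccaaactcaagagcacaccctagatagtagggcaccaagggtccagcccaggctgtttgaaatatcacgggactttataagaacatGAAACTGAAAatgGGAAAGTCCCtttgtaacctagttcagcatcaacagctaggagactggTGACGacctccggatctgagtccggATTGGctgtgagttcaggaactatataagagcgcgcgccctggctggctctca
H2-K1: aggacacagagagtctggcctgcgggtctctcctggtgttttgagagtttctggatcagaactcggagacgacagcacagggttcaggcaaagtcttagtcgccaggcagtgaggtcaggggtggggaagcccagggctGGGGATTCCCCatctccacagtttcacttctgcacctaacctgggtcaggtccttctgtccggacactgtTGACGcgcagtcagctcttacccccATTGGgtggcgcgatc
Tap1-Psmb9 CCAAT: ggggctcggctttCCAATcagcggctgcgc
Tap1-Psmb9 TGACG: gcccagagacaggTGACGacagagggtcct
Psmb8 GAS: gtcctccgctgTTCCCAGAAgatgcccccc
H2-D1 NF-kB: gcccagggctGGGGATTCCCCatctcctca
The B2m window is chr2:122147437-122147686 on the plus strand, and its capitals mark the interferon-stimulated response element, the NF-kappa-B consensus, TGACG and CCAAT read on the other strand. The H2-K1 window is chr17:34000348-34000597 on the minus strand, with the NF-kappa-B consensus, which matches at 2 overlapping positions, then TGACG and CCAAT read on the other strand. A second RefSeq start site of H2-K1, at 34000333, had the same motifs in its window, with CCAAT at 2 positions, and is not shown. The short windows are chr17:34187321-34187350, chr17:34187457-34187486, chr17:34198087-34198116 (gamma-interferon activated site) and chr17:35262913-35262942 (NF-kappa-B consensus, again at 2 overlapping positions), all on the plus strand.

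TGACG stood in the windows of B2m, H2-K1, H2-D1, Psmb9 and Tap1, and in 17.8% of 32851 promoter windows of the same length. The NF-kappa-B consensus stood in those of B2m, H2-K1 and H2-D1, and in 3.9% of all windows. An exact match to the interferon-stimulated response element as spelled above was found for B2m alone among the 8 genes (2.98% of all windows). TTCNNNGAA was found for Psmb8 alone (7.02%). Looser forms of these elements were not searched, so their absence from the other windows was not shown. CCAAT was in the windows of B2m, H2-K1, H2-D1, Tapbp, Psmb9 and Tap1, and in 33.8% of all. The windows of Psmb9 and Tap1 overlap, so their TGACG match is the same site, as is their CCAAT match. No match to the AP-1 site (6.75% of all) or the p53 decamer (7.13%) was found in the 8 genes, and the Psmb10 window held none of the 7 motifs. A match describes the letters of a window and shows neither binding nor a cause.

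The libraries held 46604397 to 62812641 reads over the table, and a log2 value of 0 corresponded to 41.6 to 85.9 reads, depending on the library. Each value is a log2 of the reads, with 0.5 added, relative to a scaled library total, and replicates differed by more than counting error (chi-square over degrees of freedom from 2.76 to 31.3). The deposited scale carried a shift per library: setting each library's median to a common value removed -0.21 (log2) from the comparison of 8 h of BMH-21 with control, 0.22 from that of 8 h of CX-5461 with control, and -0.43 from BMH-21 against CX-5461 at 8 h. Where this centring changes a call of 1 of the 10 genes, both values are given. All 10 stem cell markers listed (Pou5f1, Sox2, Nanog and others) were present, with summed levels of 6580 to 7505 CPM in control, 3071 to 3303 at 8 h of BMH-21 and 5904 to 6365 at 8 h of CX-5461. The 9 fibroblast markers summed to 35.8 to 40.1 CPM in control, 50.2 to 59.8 at 8 h of BMH-21 and 53.6 to 54.4 at 8 h of CX-5461, and the 7 blood cell markers to 35.1 to 37.3, 33.2 to 40.1 and 52.0 to 55.1. Their part in the results was not tested. In these bulk libraries a change in the share of cells that express a gene and a change in RNA per cell cannot be told apart.

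The genes split into 3 patterns. Tap1 and Nlrc5 rose strongly under both inhibitors, Tap1 by 2 h and Nlrc5 mainly between 2 and 4 h. Tap2 rose more modestly from 4 h, and so did the reads assigned to Psmb9, which shares exonic bases with Tap1 in GENCODE M21. The class I chains, Tapbp, Psmb8 and Psmb10 did not rise with them on the deposited scale, except that B2m rose at 8 h of CX-5461 and H2-K1 slightly at 4 h of BMH-21. Tapbp, Psmb8 and Psmb10 fell at 8 h of BMH-21.

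**Figure D1:**
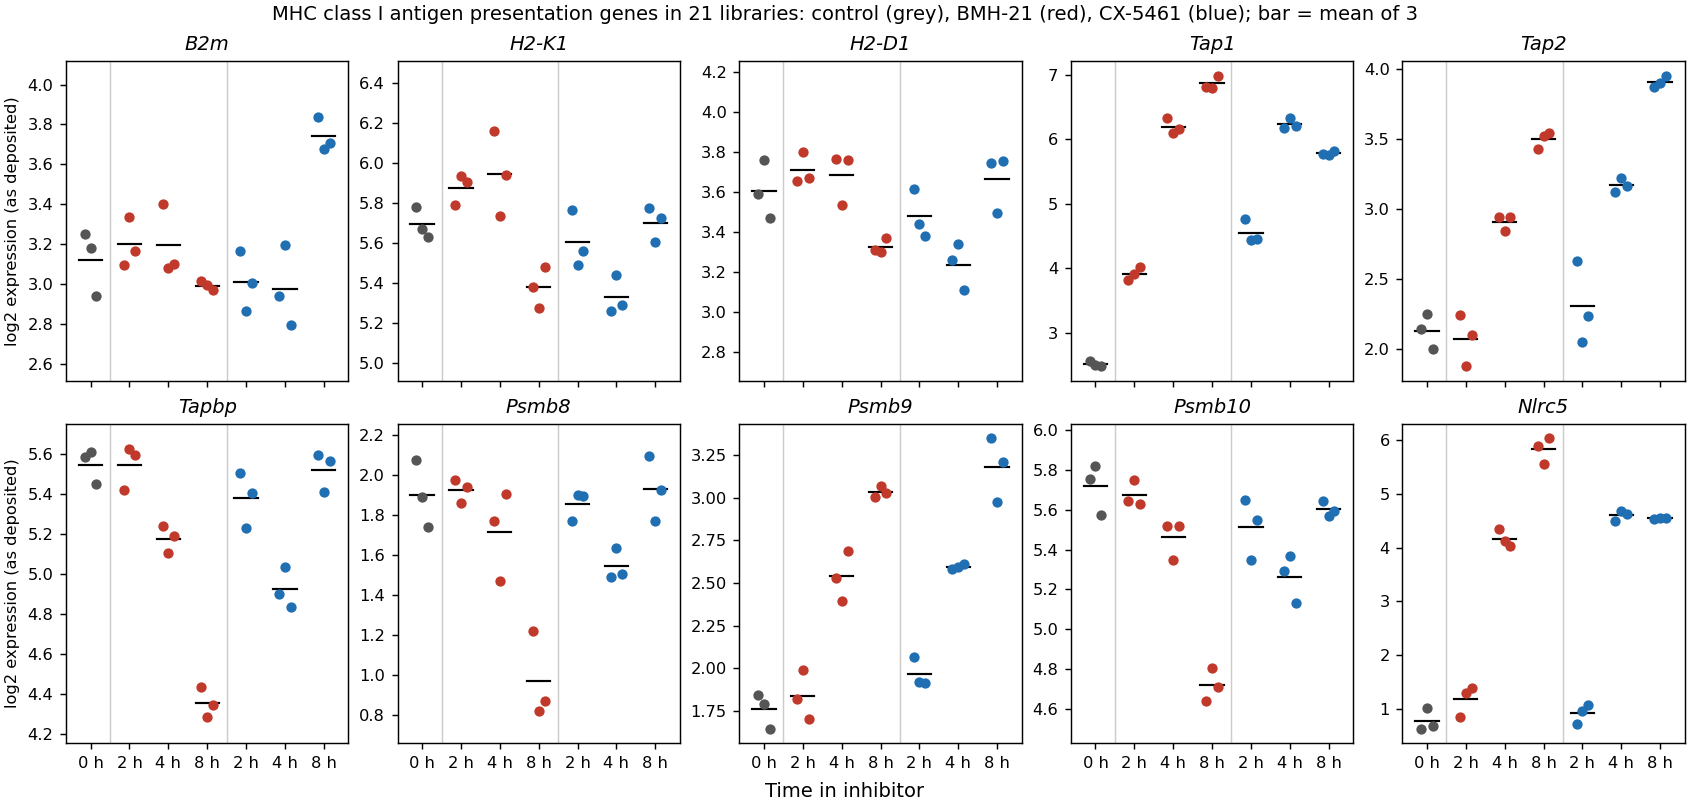
Deposited log2 expression of the 10 genes (vertical axes, each with its own range) against time in inhibitor, 1 point per library and a bar for the mean of 3, with control in grey, BMH-21 in red and CX-5461 in blue. Tap1 and Nlrc5 span the widest range, from 2.49 to 6.99 and from 0.63 to 6.04, while H2-D1 stays between 3.11 and 3.80.

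Against control, 2 of 10 genes passed an adjusted p of 0.05 in limma after 2 h of BMH-21, both higher (19.7% of all genes tested passed, 8.48% higher and 11.2% lower). After 4 h of BMH-21, 5 were higher and 2 lower (67% of all genes, 22.1% higher and 44.9% lower), and after 8 h, 4 were higher and 5 lower (81.5% of all genes, 24.5% higher and 56.9% lower). After 2 h of CX-5461, 1 gene passed, higher (27.9% of all genes, 7.45% higher and 20.5% lower). After 4 h, 4 were higher and 5 lower (70.9% of all genes, 19.8% higher and 51.2% lower), and after 8 h, 5 were higher and 0 lower (49.4% of all genes, 35.1% higher and 14.3% lower). Counted in either direction, the shares of the 10 genes were near those of all genes at each time of BMH-21 and at 8 h of CX-5461. By direction, the share that was higher lay above that of all genes in each of the 6 comparisons. The share that was lower lay under that of all genes. These differences were not tested and rest on 10 genes, and some were small. At 2 h of CX-5461, 1 of 10 was higher, beside 7.45%. At 4 h of CX-5461 and 8 h of BMH-21, 5 of 10 were lower, beside 51.2% and 56.9%. The higher counts at 4 and 8 h include Psmb9, with no correction for the bases it shares with Tap1. The median change of the 10 at 8 h was -0.21 for BMH-21, beside -0.40 over all genes tested, and 0.34 for CX-5461, beside 0.11. All these comparisons use the same 3 control libraries.

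Nlrc5 encodes the class I transactivator. Its log2 values were 0.63, 1.01 and 0.67 in the control libraries (72 to 91 reads). They were 0.85, 1.28 and 1.38 at 2 h of BMH-21, 4.35, 4.12 and 4.04 at 4 h, and 5.90, 5.56 and 6.04 at 8 h (3577 to 4125 reads). Every library at 4 and 8 h lay above every control library, while the 2 h values overlapped control. The rise over control was 3.40 (SE 0.129) on the log2 scale at 4 h and 5.06 (SE 0.129) at 8 h, a 33.4-fold change (limma, adjusted p = 1.4e-69). At 2 h it was 0.40 (SE 0.129, limma adjusted p = 0.016), a call that was lost when BMH-21 replicate 2 (adjusted p = 0.071) or 3 (0.17) or control replicate 1 (0.12) or 3 (0.072) was left out. Under CX-5461 the Nlrc5 values were 0.72, 0.95 and 1.07 at 2 h, 4.50, 4.68 and 4.62 at 4 h, and 4.52, 4.55 and 4.56 at 8 h. The 2 h values overlapped control, and the 4 and 8 h values lay together well above it, with changes of 3.83 and 3.77 (SE 0.129 each, limma adjusted p = 5.2e-56 and 4e-55), or 14.2-fold and 13.7-fold. The spread of Nlrc5 between replicates was 1.19 times the moderated spread used in its test.

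Tap1 encodes a subunit of the peptide transporter. Its control libraries were close together, at 2.56, 2.51 and 2.49 (258 to 276 reads). Under BMH-21 Tap1 stood at 3.82, 3.92 and 4.02 after 2 h, 6.34, 6.10 and 6.16 after 4 h, and 6.82, 6.79 and 6.99 after 8 h (6778 to 9581 reads). Under CX-5461 Tap1 stood at 4.77, 4.44 and 4.45 after 2 h, 6.17, 6.33 and 6.21 after 4 h, and 5.78, 5.76 and 5.82 after 8 h. No treated library overlapped control at any time, and the CX-5461 8 h libraries lay below those of 4 h. Tap1 changed 2.64-fold, 12.8-fold and 20.4-fold at 2, 4 and 8 h of BMH-21 (log2 1.40, 3.68 and 4.35, SE 0.11 each; limma adjusted p from 2.7e-22 to 4.6e-70). Under CX-5461 the fold changes were 4.11, 13.2 and 9.64 (log2 2.04, 3.72 and 3.27, SE 0.11 each; largest limma adjusted p 4.1e-35). On the deposited scale, Tap1 was the only one of the 10 genes to pass at 2 h of both inhibitors.

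Tap2, the partner of TAP1 in the transporter, responded later and less. Control values were 2.14, 2.25 and 2.00, and the 2 h values of both inhibitors overlapped them. With BMH-21, Tap2 reached 2.94, 2.84 and 2.94 at 4 h and 3.43, 3.52 and 3.54 at 8 h. With CX-5461 it reached 3.12, 3.22 and 3.16 at 4 h and 3.87, 3.90 and 3.95 at 8 h. All libraries from 4 h on lay above all control libraries. At 2 h of CX-5461 the change of Tap2 was 0.18 as deposited (limma adjusted p = 0.28) and 0.32 after centring (0.034). The 8 h changes were 1.37 for BMH-21 (SE 0.129, 2.58-fold, limma adjusted p = 2e-18) and 1.78 for CX-5461 (SE 0.129, 3.42-fold, limma adjusted p = 2e-25). GENCODE M21 places 533 of the exonic bases of Tap2 (14.1%) on the antisense gene Gm15821 as well, and 165 (4.36%) on the antisense gene Gm20496. Whether the counting used strand is not given in the sources used here.

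Tapbp encodes tapasin. Its values were 5.59, 5.61 and 5.45 in control, 5.42, 5.63 and 5.60 at 2 h of BMH-21, 5.24, 5.10 and 5.19 at 4 h, and 4.44, 4.28 and 4.35 at 8 h. The 4 and 8 h libraries lay below every control library, and Tapbp fell by 1.19 on the log2 scale at 8 h, to 0.437 of its control level (SE 0.109, limma adjusted p = 3e-19). With CX-5461, Tapbp was at 4.90, 5.03 and 4.84 after 4 h, a change of -0.62 (SE 0.109, limma adjusted p = 2.8e-07), and back at 5.60, 5.41 and 5.57 after 8 h, which overlapped control. Its exons share 904 bases (24.9%) with the antisense gene Gm19412, and 149 bases (4.11%) with Zbtb22, a protein-coding gene on the same strand. After centring each library on its median, the 8 h change was -0.98 for BMH-21 and -0.24 for CX-5461 (limma adjusted p = 0.00035), so the return to the control level under CX-5461 holds on the deposited scale.

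**Figure D2:**
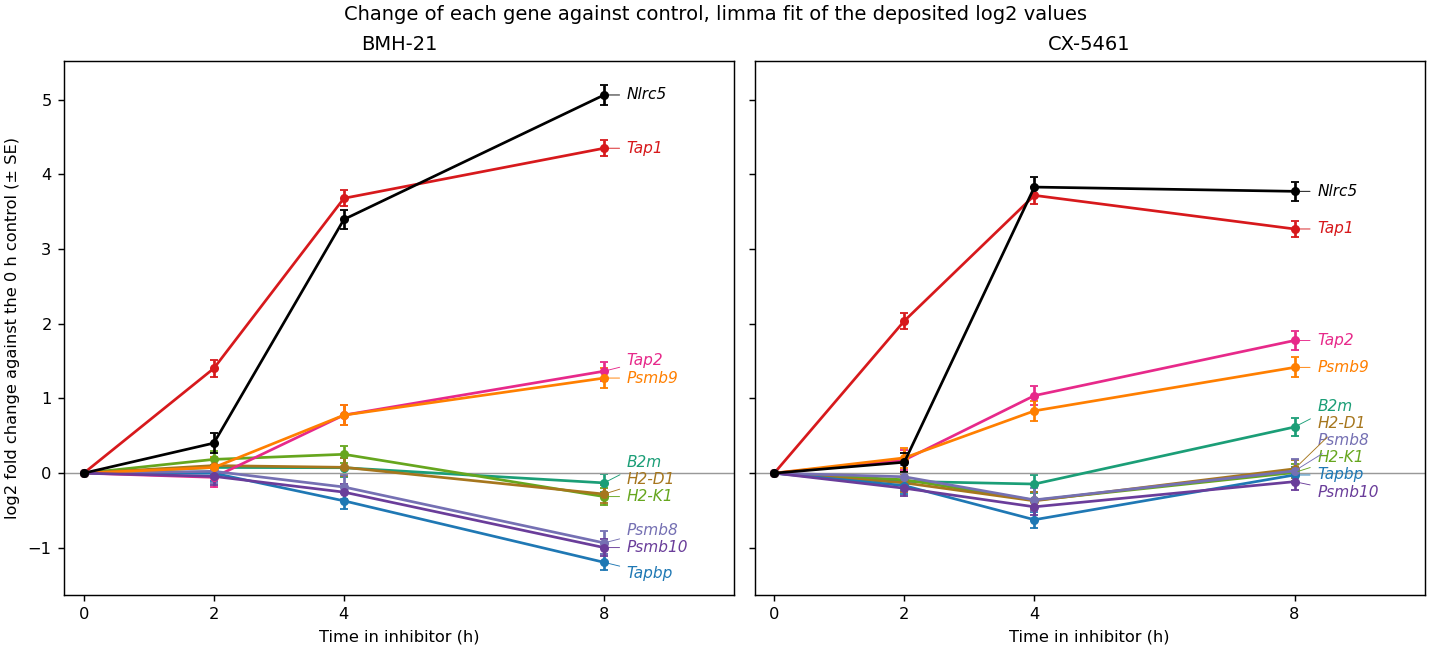
Log2 fold change of each gene against the shared 0 h control (points, with bars for ± 1 SE of the limma fit) at 2, 4 and 8 h of BMH-21 (left) and CX-5461 (right). Nlrc5 and Tap1 reach 5.06 and 4.35 at 8 h of BMH-21 and 3.77 and 3.27 at 8 h of CX-5461, above Tap2 and Psmb9, and the other genes lie between -1.19 and 0.62.

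The immunoproteasome subunits did not move together. Psmb9 rose in reads: its control values were 1.85, 1.79 and 1.65, and it stood at 3.01, 3.07 and 3.03 at 8 h of BMH-21 and 3.35, 2.98 and 3.21 at 8 h of CX-5461. All 6 of these lay above control, with changes of 1.27 and 1.42 (SE 0.134 each, limma adjusted p = 9.7e-16 and 9.4e-18). At 4 h the changes of Psmb9 were 0.78 and 0.83. At 2 h of CX-5461 its change was 0.20 as deposited (limma adjusted p = 0.23) and 0.35 after centring (0.011). In the GENCODE M21 models Psmb9 and Tap1 overlap head to head, with 212 exonic bases given to both. These are 5.79% of Psmb9 and 3.87% of Tap1. The RefSeq start sites named above have 225 bases between them, and from those sites the genes do not overlap.

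If the reads of Tap1 were spread evenly over its exons and those in the shared bases were counted for Psmb9, they would make up 10.3 of the 157 Psmb9 reads in the median control library, 309 of 512 at 8 h of BMH-21 and 105 of 409 at 8 h of CX-5461. With this share taken out, the median Psmb9 reads were 147 in control, 149 and 178 at 4 h of BMH-21 and CX-5461, and 219 and 305 at 8 h. The change of Psmb9 was then 0.20 at 8 h of BMH-21 (limma adjusted p = 0.21) and 1.12 at 8 h of CX-5461 (adjusted p = 2.4e-10), and the 4 h changes were -0.11 and -0.02 (adjusted p = 0.55 and 0.9). Under that correction, which was chosen after seeing the data, the rise after 8 h of CX-5461 alone passed among the comparisons of Psmb9 with control. The annotation used for counting, its use of strand and the assignment of reads in the shared bases are not given in the sources used here.

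Psmb8 stood at 2.08, 1.89 and 1.74 in control (158 to 197 reads), 1.22, 0.82 and 0.87 after 8 h of BMH-21 (114 to 152 reads) and 2.10, 1.77 and 1.93 after 8 h of CX-5461. The BMH-21 libraries lay below control and the CX-5461 libraries overlapped it. Psmb8 fell by 0.93 on the log2 scale at 8 h of BMH-21 (SE 0.155, limma adjusted p = 4e-08). Its change of -0.36 at 4 h of CX-5461 (limma adjusted p = 0.033) was lost after centring (-0.20, adjusted p = 0.16) and without control replicate 1 (adjusted p = 0.17) or 2 (0.062), or without CX-5461 replicate 1 (0.091) or 3 (0.084). Its exons share 498 bases (14.7%) with the antisense gene Gm20496.

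Psmb10 had the highest level of the 3 subunits. It was at 5.76, 5.82 and 5.57 in control, 4.64, 4.81 and 4.71 after 8 h of BMH-21, and 5.65, 5.57 and 5.59 after 8 h of CX-5461. Psmb10 fell by 1.00 at 8 h of BMH-21, to 0.501 of control (SE 0.109, limma adjusted p = 4.7e-15), with no overlap, and by 0.45 at 4 h of CX-5461 (adjusted p = 0.00015). Its change of -0.25 at 4 h of BMH-21 (limma adjusted p = 0.033) was lost after centring (-0.10, adjusted p = 0.23) and without BMH-21 replicate 2 (adjusted p = 0.15) or control replicate 1 (0.096) or 2 (0.15). At 8 h of CX-5461 the change of Psmb10 was -0.11 as deposited (adjusted p = 0.4) and -0.33 after centring (limma adjusted p = 0.00063).

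The changes of the class I chains B2m, H2-K1 and H2-D1 against control lay between -0.37 and 0.62 on the deposited scale. B2m had control values of 3.25, 3.18 and 2.94 and stood at 3.01, 2.99 and 2.97 after 8 h of BMH-21, within the control range, and at 3.84, 3.68 and 3.71 after 8 h of CX-5461, above it. The change of B2m at 8 h of CX-5461 was 0.62 (SE 0.124, 1.53-fold, limma adjusted p = 1e-05), and 0.40 after centring (adjusted p = 2.4e-05). In the other 5 comparisons with control, B2m changed by -0.15 to 0.08 and did not pass as deposited. After centring, its change at 4 h of BMH-21 was 0.22 and passed (limma adjusted p = 0.0077; 0.07 and 0.62 as deposited). The 95% interval bound farthest from 0 among them was -0.39, at 4 h of CX-5461.

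H2-K1, a classical class I heavy chain, stood at 5.78, 5.67 and 5.63 in control, 6.16, 5.73 and 5.94 with BMH-21 for 4 h, and 5.38, 5.27 and 5.48 for 8 h. With CX-5461 it was at 5.26, 5.44 and 5.29 after 4 h and 5.77, 5.60 and 5.72 after 8 h. The 8 h BMH-21 and 4 h CX-5461 libraries lay below control, and the others named overlapped it. The changes of H2-K1 were 0.25 at 4 h of BMH-21 (limma adjusted p = 0.035), -0.31 at 8 h of BMH-21 (0.0066) and -0.36 at 4 h of CX-5461 (0.0023). The first was lost without BMH-21 replicate 1 (adjusted p = 0.26) or 3 (0.069) or control replicate 2 (0.088) or 3 (0.096). The 8 h fall became -0.10 after centring (limma adjusted p = 0.06), 0.04 with median-ratio factors (0.43) and 0.02 with quantile normalization (0.71), so its direction depends on the scaling. The fall at 4 h of CX-5461 kept its direction on these scalings and passed on all but the quantile scale (-0.11, adjusted p = 0.058). Centring also moved H2-K1 past the threshold at 2 h of BMH-21 (0.18, adjusted p = 0.26 as deposited; 0.26, 0.0002 after centring) and at 8 h of CX-5461 (0.01, 0.96 as deposited; -0.21, 0.00067 after centring).

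H2-D1, the other classical heavy chain, followed H2-K1. Its values were 3.59, 3.76 and 3.47 in control, 3.31, 3.30 and 3.37 after 8 h of BMH-21, and 3.26, 3.34 and 3.11 after 4 h of CX-5461, both below control. The changes of H2-D1 were -0.28 (SE 0.119, limma adjusted p = 0.025) and -0.37 (SE 0.119, adjusted p = 0.004). At 4 h of BMH-21 the change of H2-D1 was 0.08 as deposited (limma adjusted p = 0.57) and 0.23 after centring (0.011). The fall at 4 h of CX-5461 was -0.12 with median-ratio factors (adjusted p = 0.16). The 8 h fall of H2-D1 was -0.07 after centring (limma adjusted p = 0.41), 0.08 with median-ratio factors, and was lost as a call without BMH-21 replicate 1 (0.059) or control replicate 2 (0.16). The class I heavy chain genes resemble each other in sequence, so reads of H2-K1 and H2-D1 could be shared with other members of the family, and these values are uncertain to that extent.

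The inhibitors were also compared directly at the same dose and time. These differences take no control values, while the spread in their tests was estimated over all 21 libraries. At 2 h, 1 gene of 10 passed the threshold, lower with BMH-21 (3.99% of all genes passed, 2.47% higher and 1.52% lower). At 4 h, 2 were higher and 1 lower (17.8% of all genes, 9.35% higher and 8.49% lower), and at 8 h 9 passed (79.2% of all genes, 12% higher and 67.2% lower). At 8 h, 2 of the 9 were higher with BMH-21 than with CX-5461 and 7 lower. Tap1 was 1.08 higher on the log2 scale (SE 0.11, 2.12-fold, limma adjusted p = 3.7e-16) and Nlrc5 1.29 higher (SE 0.129, 2.44-fold, adjusted p = 1.7e-16), in all 3 BMH-21 libraries against all 3 CX-5461 libraries for both genes. At 2 h the order of Tap1 was the opposite, with a difference of -0.64 (limma adjusted p = 1.2e-05), and at 4 h the difference was -0.04 (95% interval -0.26 to 0.18). Nlrc5 at 4 h was 0.43 lower with BMH-21, a difference of -0.43 (limma adjusted p = 0.01) that was lost without BMH-21 replicate 2 (0.05) or 3 (0.064).

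Tapbp, Psmb8, Psmb10 and B2m were lower with BMH-21 than with CX-5461 at 8 h. The log2 differences were -1.17 for Tapbp, -0.96 for Psmb8, -0.88 for Psmb10 and -0.75 for B2m (largest limma adjusted p 5.7e-08). After centring they were -0.74, -0.54, -0.46 and -0.32, all past the threshold. The differences of H2-K1, H2-D1 and Tap2 at 8 h, -0.32, -0.34 and -0.41 as deposited, became 0.11, 0.09 and 0.02 after centring and did not pass (adjusted p = 0.061, 0.3 and 0.9). For Psmb9 the 8 h difference was -0.14 (95% interval -0.41 to 0.12), 0.28 after centring (adjusted p = 0.018), and -0.92 (adjusted p = 6.6e-08) with the length share of Tap1 reads taken out, so no direction can be given for it. At 4 h H2-K1 was 0.62 higher with BMH-21 (limma adjusted p = 6e-06) and H2-D1 0.45 higher (0.0032), and this held after centring. Of the differences that did not pass as deposited, 3 more passed after centring: H2-K1 at 2 h (0.27, then 0.20, limma adjusted p = 0.0064), and B2m (0.22, then 0.21, adjusted p = 0.02) and Tapbp (0.25, then 0.24, adjusted p = 0.00081) at 4 h. A limma test of the change in this difference from 2 to 8 h passed for 8 of the 10 genes (75.3% of all genes tested).

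**Figure D3:**
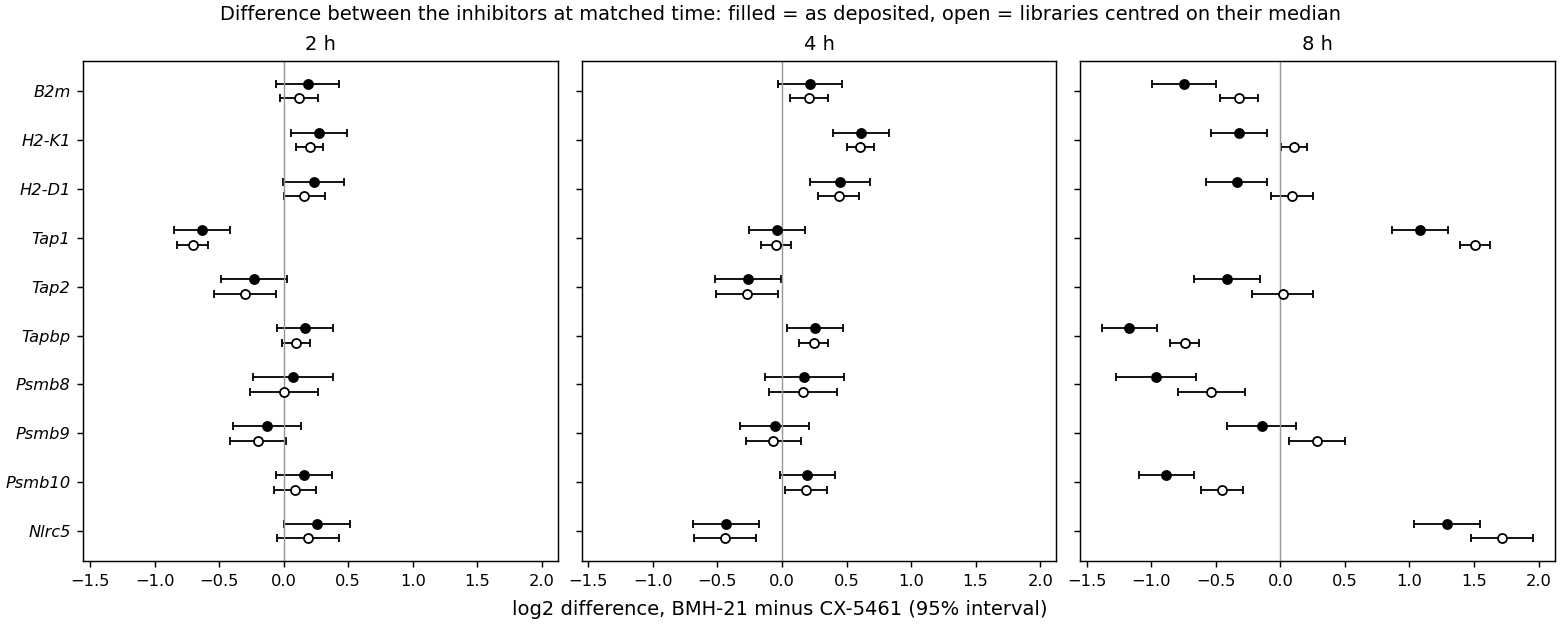
Log2 difference between BMH-21 and CX-5461 at 2, 4 and 8 h for each gene (points, BMH-21 minus CX-5461, with 95% intervals from limma), on the deposited scale (filled) and after centring each library on its median (open). At 8 h Tap1 and Nlrc5 lie to the right of 0 on both scales and Tapbp, Psmb8, Psmb10 and B2m to the left, while H2-K1, H2-D1 and Tap2 move across 0 with the scale.

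Between 2 and 8 h of the same inhibitor, 4 genes rose and 5 fell under BMH-21 (77.3% of all genes passed, 25% higher and 52.3% lower), and 5 rose and 0 fell under CX-5461 (56% passed, 51.2% higher and 4.83% lower). Nlrc5 rose by 4.66 between 2 and 8 h of BMH-21 and by 3.63 for CX-5461, and Tap1 by 2.95 and 1.23 (SE 0.129 for Nlrc5 and 0.11 for Tap1). The 3 Tap1 libraries at 4 h of CX-5461 lay above the 3 at 8 h, a difference that was not tested. After centring, 5 genes rose and 5 fell between 2 and 8 h of CX-5461. The share of all genes that passed on that scale is not given, and the median change of all genes tested was then -0.07. The 5 that fell were H2-K1, H2-D1, Tapbp, Psmb8 and Psmb10, by 0.17 to 0.28, and as deposited they changed by 0.08 to 0.19 and did not pass.

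Ratios of 2 genes within a library do not depend on the scaling. Reads per kilobase of exon were compared, with every base in any GENCODE M21 exon of the gene counted (860 for B2m, 5476 for Tap1). This length can exceed that of the transcripts present, so the level of a ratio depends on it. The change of a ratio between groups does not. Tap1 stood at 0.903 of Tap2 in control (log2 ratio -0.15, SD 0.119, n = 3), at 7.15 times Tap2 after 8 h of BMH-21 (log2 2.84, SD 0.092) and at 2.54 times after 8 h of CX-5461 (log2 1.35, SD 0.0266). No treated library of either inhibitor overlapped control in this ratio. Tap1 over B2m rose from 0.103 in control to 2.31 at 8 h of BMH-21 and 0.649 at 8 h of CX-5461. H2-K1 over H2-D1 was 3.73 in control and at most 4.20 in the other group means, and overlapped control in every group, whereas H2-K1 over B2m was 1.74 in control and 1.14 at 8 h of CX-5461, where the libraries lay below control.

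Each immunoproteasome subunit was also set against the constitutive subunit it replaces. Psmb8 over Psmb5 was 0.00548 in control, 0.00467 at 8 h of BMH-21 and 0.00636 at 8 h of CX-5461, the last above control without overlap. Psmb10 over Psmb7 was far higher, at 0.318 in control, and fell to 0.225 at 8 h of BMH-21 without overlap, while it was 0.311 at 8 h of CX-5461 and overlapped control. Psmb9 over Psmb6 went from 0.004 in control to 0.0151 at 8 h of BMH-21 and 0.0117 at 8 h of CX-5461, with no correction for Tap1 reads. By transcript level the constitutive subunits Psmb5 and Psmb6 thus exceeded Psmb8 and Psmb9 in every group.

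**Figure D4:**
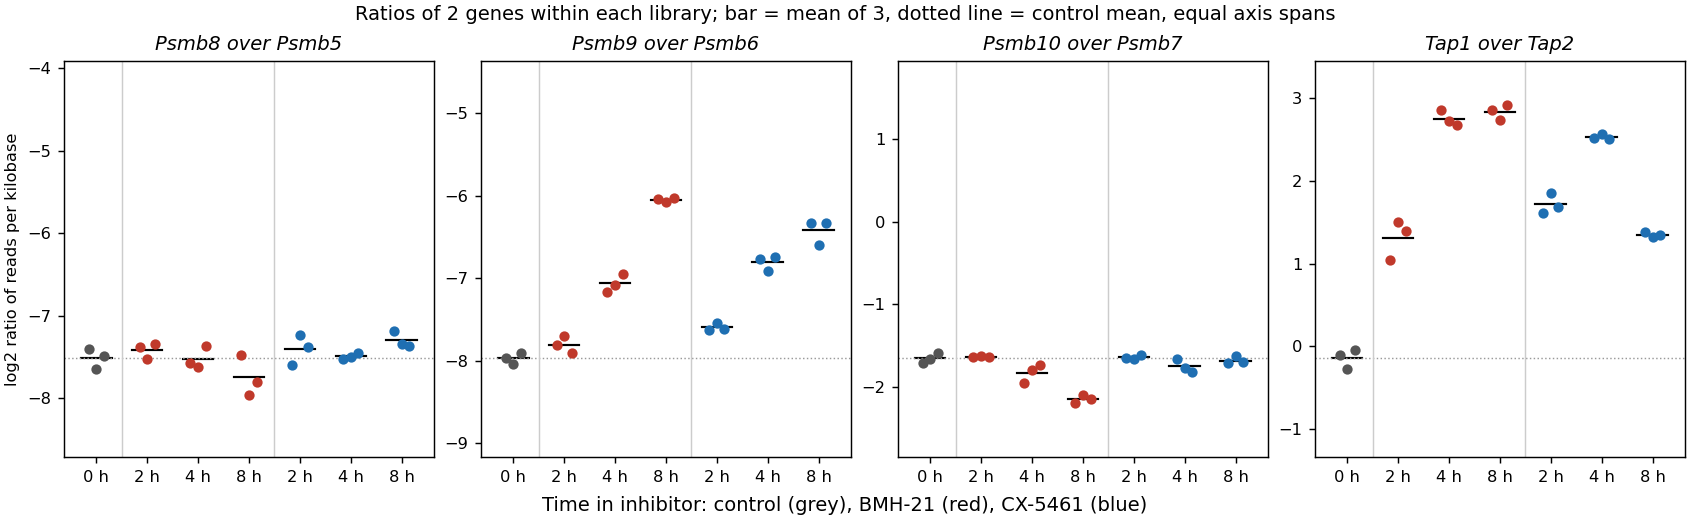
Log2 ratio of reads per kilobase between 2 genes of the same library (vertical axes, of equal span in the 4 panels) against time in inhibitor, 1 point per library, a bar for the mean of 3 and a dotted line at the control mean. Tap1 over Tap2 rises from -0.15 to 2.84 with BMH-21 and falls back to 1.35 at 8 h of CX-5461, while the group means of Psmb8 over Psmb5 lie between -7.74 (8 h of BMH-21) and -7.30 (8 h of CX-5461).

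Per kilobase of exon, the order of the levels changed with treatment. The order within a group depends on the exon lengths used, above all for genes at close levels. In control, Psmb10 had the highest log2 level (4.95), followed by H2-K1 (4.14), Tapbp (3.69), B2m (3.34) and H2-D1 (2.24), and each of these lay apart from its neighbour in all 3 libraries. Tap2 (0.21), Psmb8 (0.15), Tap1 (0.06) and Psmb9 (-0.11) came next. Libraries of Tap2, Psmb8 and Tap1 overlapped, those of Psmb9 lay just under them, and Nlrc5 was lowest at -2.32. At 8 h of BMH-21, Tap1 was first at 4.42 and Nlrc5 the fifth at 2.75, with Psmb10 at 3.95, H2-K1 at 3.82 and B2m at 3.21 between them. The levels of Psmb10 and H2-K1 overlapped there. At 8 h of CX-5461, Psmb10 was first at 4.83 and Tap1 the fifth at 3.33, and Psmb8 was lowest at 0.17.

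Genes around the class I pathway were described by lists. A gene is named for an inhibitor where it had 1 of the 2 largest changes, which does not mean that the other inhibitor left it unchanged. Of all genes tested, 24.5% were higher and 56.9% lower at 8 h of BMH-21, and 35.1% higher and 14.3% lower at 8 h of CX-5461. These shares are for the deposited scale and cannot be set beside counts after centring, for which no share is given. After centring, the median of all genes tested was -0.19 at 8 h of BMH-21 and -0.11 at 8 h of CX-5461. Of 14 tested interferon signalling genes, 4 were higher and 5 lower at 8 h of BMH-21 and 8 higher and 1 lower at 8 h of CX-5461 (8 and 4, and 8 and 2, after centring), with medians of -0.03 and 0.37 beside -0.40 and 0.11 over all genes tested. Irf9, a DNA-binding subunit of an interferon-stimulated factor complex, fell by 1.10 with BMH-21, and the kinase gene Jak2 rose by 1.25 with CX-5461. The Jak2 libraries at 8 h of BMH-21 (2.73 to 3.20) also lay above control (2.21 to 2.34). Of the interferon list, Irf2 and Irf7 did not pass the filter.

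Of 12 factors of the class I promoter, 2 were higher and 7 lower at 8 h of BMH-21, and 6 higher and 3 lower at 8 h of CX-5461 (5 and 5, and 5 and 3, after centring). Atf1 and Creb1, which bind cyclic AMP response elements, fell by 1.23 and 1.18 with BMH-21. Rfx5, a subunit of the factor that binds the X box, rose by 1.15 with CX-5461 (SE 0.127, limma adjusted p = 2.9e-14), and Nfkb2 by 0.87. The Rfx5 libraries at 8 h of BMH-21 (3.85 to 4.42) also lay above control (3.48 to 3.68). Of 5 peptide loading and trimming genes, 0 were higher and 3 lower at 8 h of BMH-21, and 3 higher and 0 lower at 8 h of CX-5461 (1 and 3, and 1 and 1, after centring). Erap1, the peptidase that trims peptides in the endoplasmic reticulum, fell by 1.67 with BMH-21 (SE 0.137, limma adjusted p = 4.6e-22). The chaperone gene Calr rose by 0.47 with CX-5461. Pdia3, a member of the loading complex, fell by 0.38 with BMH-21 but had 0.38 after quantile normalization, so its direction there depends on the scaling. With CX-5461, Pdia3 rose by 0.27, and by 0.05 after centring (limma adjusted p = 0.24). It was also higher there with median-ratio factors (0.15) and after quantile normalization (0.52).

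Of 7 constitutive proteasome and activator genes, 0 were higher and 6 lower at 8 h of BMH-21 (56.9% of all genes were lower), and 1 higher and 1 lower at 8 h of CX-5461 (1 and 5, and 0 and 5, after centring). Their medians were -0.64 and -0.08, beside -0.40 and 0.11 over all genes. Psme3 fell by 1.12 and 0.37 with the inhibitors in that order, and Psme1, a subunit of the interferon-inducible activator, fell by 0.86 with BMH-21. Psme2 changed by 0.29 at 8 h of CX-5461 (limma adjusted p = 0.018), and by 0.08 after centring (adjusted p = 0.33). Of 12 tested other class I heavy chain genes, 0 were higher and 10 lower at 8 h of BMH-21, with a median of -0.96 (56.9% of all genes were lower, with a median of -0.40), and 0 higher and 2 lower at 8 h of CX-5461, with a median of -0.15 (14.3% and 0.11 for all genes). After centring, the counts were 0 and 8, and 0 and 7. The medians were then -0.74 and -0.37, beside -0.19 and -0.11 over all genes tested. H2-M5 fell by 2.73 (SE 0.116, limma adjusted p = 3.8e-46) and by 0.91 in the 2 treatments, H2-M3 by 2.17 with BMH-21, and Fcgrt, the neonatal Fc receptor gene, by 0.50 with CX-5461. H2-Q6 and H2-Q7 were listed but not found by symbol in the deposited table, and H2-T3, H2-T22, H2-M2 and Mr1 did not pass the filter.

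Of 5 tested class II genes, 3 were higher and 2 lower at 8 h of BMH-21, and 3 higher and 0 lower at 8 h of CX-5461, with the same counts after centring (24.5% of all genes were higher and 56.9% lower with BMH-21, 35.1% and 14.3% with CX-5461). Among the higher ones, Ciita, the class II transactivator, lay under the filter's log2 value of 0 in all control libraries (-2.11 to -0.57). It passed the filter only through treated groups, so its difference and its place in these counts follow in part from the filter. No test value is given for Ciita. It had 10 to 31 reads in control, 659 to 812 at 8 h of BMH-21 and 127 to 167 at 8 h of CX-5461, with log2 means of -1.40, 3.44 and 1.59. H2-Eb1, a class II beta chain, rose by 4.15 and 3.29 (SE 0.12 each), from 115 to 128 reads in control to 2619 to 4090 and 1127 to 1391. The class II genes H2-Aa and H2-Ab1 did not pass the filter.

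**Figure D5:**
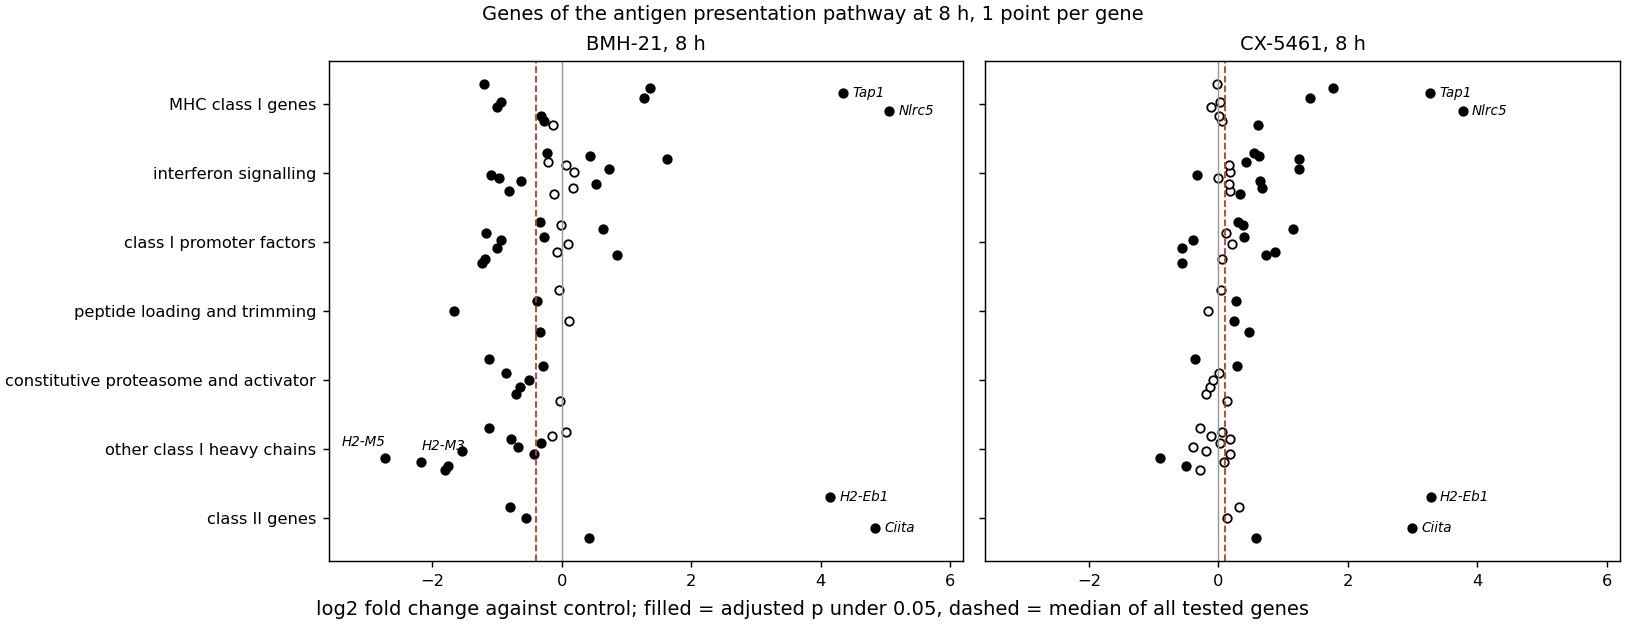
Log2 fold change against control at 8 h of BMH-21 (left) and CX-5461 (right) for each tested gene of the 10 class I genes and of the 6 lists, filled where the limma adjusted p was under 0.05, with a dashed line at the median of all genes tested (-0.40 and 0.11). Tap1, Nlrc5, Ciita and H2-Eb1 lie to the right of 2 in both panels. At 8 h of BMH-21, 10 of 12 other class I heavy chain genes passed as lower, beside 56.9% of all genes tested. Ciita passed the filter only through treated groups, so its filled points follow in part from the filter.

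The genes whose pattern over the 21 centred libraries was most like that of 3 members were found by Pearson's r, which is a description because libraries of a group share their treatment. For Tap1 they were Parp10 (0.997), 1700007K13Rik (0.995) and Lmod1 (0.994). For H2-K1 they were Becn1 (0.933), Dgat1 (0.929) and Dok2 (0.927). For B2m the highest values were lower, with Ppp3ca (0.819), P3h1 (0.818) and Mfap5 (0.812).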

How the data were processed

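Poly(A) RNA was treated with DNase and sequenced with a strand-specific kit, per the labels' protocols. The authors deposited 1 table of log2 expression values for 21 libraries, under a name that says voom. The submitters' processing notes name Trim Galore 0.5.0, TopHat2 2.1.1, R 4.0.5, DESeq2 1.30.1, edgeR 3.32.1, limma 3.46.0 and mm10, with no role or order. The counting program, its use of strand, the annotation and the filters before deposition are not given in the sources used here.

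Groups came from the sample titles, and 0 columns were left unmapped. Whole reads were recovered from the log2 values (largest relative deviation 3.9e-14), and were used for read support, ratios and alternatives. Nothing says that replicates were separate cultures, so p-values measure only the spread between these libraries. The deposited values of all 21 libraries were fitted in limma 3.58.1 under R 4.3.3, with 1 coefficient for each group and moderated variances that follow a trend in mean expression. P-values were two-sided and adjusted by Benjamini and Hochberg's method over 14666 genes in each of 11 comparisons, at 0.05. With 14 residual and 111.5 prior degrees of freedom, a gene's own spread had little weight. The own SD of the 10 genes was 0.713 to 1.19 times the moderated SD. Because 0.5 was added to the reads, fold changes of low genes are understated. The fit was tested on simulated reads.

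The 10 genes, the lists and the rule for named genes were chosen with earlier results of these data known. All 10 are named in every comparison, as are, from each list and for each inhibitor, the 2 tested genes with the largest change at 8 h among those with adjusted p under 0.05 and no overlap with control, and for B2m, H2-K1 and Tap1 the 3 genes of highest correlation. Irf2, Irf7 and other unmeasured or filtered list genes are named as such. Gene positions and exon lengths are from GENCODE M21, promoter sequences from RefSeq (GRCm38.p6), and markers were summed as CPM of the recovered reads. Alternatives were other filters, offsets, scalings and variance models, the replicate block, fits of the groups compared, leaving out each library and, added after seeing the data, the Psmb9 correction. Figures were drawn with matplotlib 3.10.9. One gene that the rule for named genes selects from the pathway lists is not reported here.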

Additional observations from a re-analysis of the deposited data

Results flagged for a closer look

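The difference between the inhibitors changed with time for 8 of the 10 genes, by a limma test of the drug-by-time interaction (8 h minus 2 h of the BMH-21 minus CX-5461 difference, adjusted over all genes tested, of which 75.3% passed). Tap1 changed by 1.72 (adjusted p = 2.9e-18), from a level below that with CX-5461 at 2 h to one above it at 8 h, and Nlrc5 by 1.03 (adjusted p = 4.6e-07). The changes were -1.34 for Tapbp, -1.04 for Psmb8, -1.04 for Psmb10 and -0.93 for B2m, which all passed after centring too (-0.84, -0.54, -0.54 and -0.44). For H2-K1 and H2-D1 the changes were -0.59 and -0.57 as deposited (limma adjusted p = 0.00041 and 0.0017). After centring they were -0.10 and -0.07 (adjusted p = 0.24 and 0.6) and did not pass. Tap2 did not pass on either scale, and Psmb9 passed after centring only (0.48, adjusted p = 0.0066).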

How the results depend on the processing

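Of 60 gene and comparison pairs that passed as deposited, 47 kept their direction and call under every alternative but the added Psmb9 correction, among them every Tap1 and Nlrc5 call against control from 4 h on; of 50 that did not pass, 12 kept their direction and stayed so. The replicate block, with the replicate numbers of the titles, changed no call: 7 genes passed at 4 h and 9 at 8 h of BMH-21 against control, as without it, and all 110 pairs stayed the same. No effect shared by same-numbered libraries was seen. For this, each gene's group mean was subtracted and libraries of different groups were correlated. Those of the same number had r of -0.251 to 0.109 over 63 pairs, and 4 of 21 correlated best with their own number. The labels do not say whether the numbers pair the libraries, and weak correlation cannot exclude it.

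The count at 2 h of BMH-21 against control fell from 2 to 1 with no filter, eBayes without trend, voom weights or only the groups compared, and was 1 to 2 when 1 library was left out; the gene lost was Nlrc5. After centring, median-ratio factors and quantile normalization, in that order, the counts were 3, 4 and 2 for CX-5461 at 2 h against control (1 as deposited), 2, 2 and 2 for BMH-21 against CX-5461 at 2 h (1), 5, 5 and 5 for the same at 4 h (3), and 10, 8 and 10 for CX-5461 at 8 h against 2 h (5). For CX-5461 at 8 h against control they were 8 after centring and 9 after quantile normalization (5). The shares of all genes that passed on these scalings are not given, and the cause was not tested. The other counts stayed within 1.5 times. Small changes reversed in sign with the scaling. After centring, the values were Tap2 0.020, Tapbp 0.075, Psmb10 0.032 (BMH-21 2 h against control), B2m 0.081 (BMH-21 8 h against control), B2m 0.037, H2-K1 0.058, H2-D1 0.017, Psmb8 0.098 (CX-5461 2 h against control), B2m 0.013 (CX-5461 4 h against control), H2-K1 -0.21, H2-D1 -0.16, Psmb8 -0.19 (CX-5461 8 h against control), H2-K1 0.11, H2-D1 0.090, Tap2 0.017, Psmb9 0.28 (BMH-21 8 h against CX-5461 8 h), H2-K1 -0.27, H2-D1 -0.17, Tapbp -0.22, Psmb8 -0.28, Psmb10 -0.27 (CX-5461 8 h against CX-5461 2 h). With median-ratio factors, the values were Tap2 0.027, Tapbp 0.082, Psmb10 0.040 (BMH-21 2 h against control), B2m 0.23, H2-K1 0.043, H2-D1 0.077 (BMH-21 8 h against control), B2m 0.073, H2-K1 0.094, H2-D1 0.053, Tapbp 0.016, Psmb8 0.13 (CX-5461 2 h against control), B2m 0.10 (CX-5461 4 h against control), H2-K1 -0.11, H2-D1 -0.058, Psmb8 -0.086 (CX-5461 8 h against control), Psmb8 -0.027 (BMH-21 2 h against CX-5461 2 h), H2-K1 0.15, H2-D1 0.13, Tap2 0.062, Psmb9 0.33 (BMH-21 8 h against CX-5461 8 h), B2m 0.067 (BMH-21 8 h against BMH-21 2 h), H2-K1 -0.20, H2-D1 -0.11, Tapbp -0.16, Psmb8 -0.22, Psmb10 -0.21 (CX-5461 8 h against CX-5461 2 h). After quantile normalization, the values were Tapbp 0.077, Psmb10 0.033 (BMH-21 2 h against control), H2-K1 0.021 (BMH-21 8 h against control), B2m 0.016, H2-K1 0.076, H2-D1 0.0019, Psmb8 0.048 (CX-5461 2 h against control), H2-K1 -0.10, H2-D1 -0.28, Psmb8 -0.51 (CX-5461 8 h against control), H2-K1 0.12, H2-D1 0.085, Tap2 0.0096, Psmb9 0.28 (BMH-21 8 h against CX-5461 8 h), H2-K1 -0.18, H2-D1 -0.28, Tapbp -0.14, Psmb8 -0.56, Psmb10 -0.19 (CX-5461 8 h against CX-5461 2 h). With the length share of Tap1 reads taken out, Psmb9 reversed to -0.088 (BMH-21 2 h against control), -0.11 (BMH-21 4 h against control), -0.082 (CX-5461 2 h against control), -0.023 (CX-5461 4 h against control). Leaving out 1 library at a time, the ranges that crossed 0 were Tapbp -0.051 to 0.061 (BMH-21 2 h against control), Psmb8 -0.056 to 0.11 (BMH-21 2 h against control), Tap2 -0.14 to 0.042 (BMH-21 2 h against control), B2m -0.031 to 0.14 (BMH-21 4 h against control), Tap1 -0.11 to 0.011 (BMH-21 4 h against CX-5461 4 h), Psmb9 -0.13 to 0.014 (BMH-21 4 h against CX-5461 4 h), Psmb8 -0.13 to 0.038 (CX-5461 2 h against control), Psmb10 -0.12 to 0.0088 (BMH-21 2 h against control), H2-K1 -0.028 to 0.057 (CX-5461 8 h against control), Tapbp -0.074 to 0.033 (CX-5461 8 h against control), B2m -0.016 to 0.14 (BMH-21 2 h against control), H2-D1 -0.010 to 0.14 (CX-5461 8 h against control), Psmb8 -0.054 to 0.12 (CX-5461 8 h against control), Psmb8 -0.0051 to 0.16 (CX-5461 8 h against CX-5461 2 h).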
